A study of Homo sapiens with 6 samples.

Results

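The NRF2 and glutathione defence genes described here are 10 genes taken by name: NFE2L2, KEAP1, SLC7A11, GCLC, GCLM, GPX4, TXNRD1, SRXN1, NQO1 and HMOX1. All 10 were found by symbol among the 62700 genes of the deposited gene table, and 9 of them were among the 14292 genes with enough reads to be tested. SRXN1 was the exception, by its read count in that table. Expression was compared in 6 polyadenylated RNA libraries of TCam-2, an established human testicular cancer cell line of seminoma type, in 3 groups of 2. WT cells were not transduced, GFP cells were transduced with GFP_FLAG, and RBMXL3 cells were transduced with RBMXL3_FLAG, an RNA-binding protein gene. GFP and WT were the negative controls for RBMXL3 overexpression. The promoter that drives the transgenes, and whether a group is a clone or a mixed population, are not given in the sources used here.

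NRF2, the protein of NFE2L2, is a transcription factor that is held at a low level by KEAP1, which presents it to the CUL3 ubiquitin ligase for degradation. When electrophiles or oxidants modify cysteines of KEAP1, NRF2 escapes, pairs with small MAF proteins and binds antioxidant response elements near genes for glutathione synthesis, thioredoxin reduction, quinone reduction and heme breakdown. Glutathione is made from glutamate, cysteine and glycine, and its supply depends on cystine import and on the glutamate-cysteine ligase step. NRF2 is controlled largely at the protein level, which RNA does not measure.

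The libraries held between 17685680 and 29318007 recovered reads, and both RBMXL3 libraries were the shallowest. RBMXL3 itself had 0 reads in each of the 4 control libraries, which allows up to 3 reads in each, and 84 and 68 reads in the RBMXL3 libraries. All 10 seminoma-type markers, POU5F1, NANOG, SOX17 and KIT among them, were detected in every library, and their summed normalised count lay between 122323 and 140191. Within this sum, KIT and LIN28A were called lower and DPPA4 higher in RBMXL3 against both controls, POU5F1 higher and PRDM1 lower against WT, and KIT lower in GFP against WT. A list of 4 fibroblast markers summed to 401 and 425 normalised reads in WT, 724 and 728 in GFP, compared with 1329 and 1318 in RBMXL3. COL1A1, COL3A1 and LUM were called higher against WT in GFP and in RBMXL3. In RBMXL3 against GFP, COL3A1 and LUM were called higher and COL1A1 was not (log2 difference 0.16). DCN had between 0 and 2 reads. A list of 4 Leydig or Sertoli markers summed to between 167 and 226 in the controls and to 281 and 305 in RBMXL3. Of these, SOX9 was called higher in RBMXL3, by 0.49 against GFP and 0.60 against WT on the log2 scale. AMH was not called in any comparison, and INSL3 and STAR had 0 or 1 reads. Embryonal carcinoma markers summed to 2101 and 2007 in WT, 2667 and 2349 in GFP, compared with 2617 and 2780.3 in RBMXL3. Of these, SOX2, with 11 to 37 reads, was called higher in RBMXL3 against GFP, and DNMT3B and GDF3 against WT. Endothelial (143 to 221) and leukocyte (7.39 to 24.6) markers gave the other sums. The fibroblast list is highest in the group in which the changes below were measured, and its part in them was not tested. Nothing in the labels says that the libraries of a group came from separate cultures, so the p-values measure the spread between libraries, which may be technical.

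Levels between genes were compared as TPM, the transcript abundance scaled for transcript length and library size. GPX4 had the highest mean over the 6 libraries, 450.3 TPM, followed by NQO1 with 129.7, TXNRD1 with 62.4, SRXN1 with 46.4 and NFE2L2 with 42.5. KEAP1 with 16.9, GCLC with 14.8, GCLM with 13.1, HMOX1 with 7.71 and SLC7A11 with 5.72 TPM made up the lower part of the order. The library ranges of SRXN1 and NFE2L2, KEAP1 and GCLC, KEAP1 and GCLM, GCLC and GCLM, and HMOX1 and SLC7A11 overlapped. The order within these pairs is thus within the spread over libraries. The ranges of TXNRD1 and NFE2L2 also overlapped, although TXNRD1 was higher in each library. The cystine transporter gene was thus among the least abundant of the 10 and the lipid peroxide reductase gene the most abundant.

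Within each gene, the main scale was the normalised read count, which is the read count divided by a size factor of the library. Differences were tested with limma on log2(value + 1) after rescaling the counts by a common factor, and genes with a p under 0.05 after Benjamini-Hochberg adjustment over all genes tested are named as called. Against GFP, 2 of the 9 tested genes were called, SLC7A11 and GCLM, both higher in RBMXL3, where 20.9% of all genes tested were called, 10.5% higher and 10.4% lower. Against WT, 5 of 9 were called, where the share of all genes was 29.9%, 14.6% higher and 15.3% lower. SLC7A11 and GPX4 were higher, and NFE2L2, NQO1 and TXNRD1 were lower. SLC7A11 was the only member called against both controls, as were 13.7% of all genes, 6.88% higher and 6.86% lower. Without GFP replicate 1 or GFP replicate 2, 5 and 3 members were called against both. GPX4 was the only member called in GFP against WT, where 3.67% of all genes were called and 1.76% were higher. With so few members, the shares called against GFP and against both controls lay close to the background. The median log2 difference of the 9 genes was -0.16 against GFP and 0.16 against WT, beside 0.00087 and -0.01 for all genes tested. The 2 comparisons share the RBMXL3 libraries. In these bulk samples, fewer cells with a transcript and less of it per cell cannot be told apart.

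**Figure D1:**
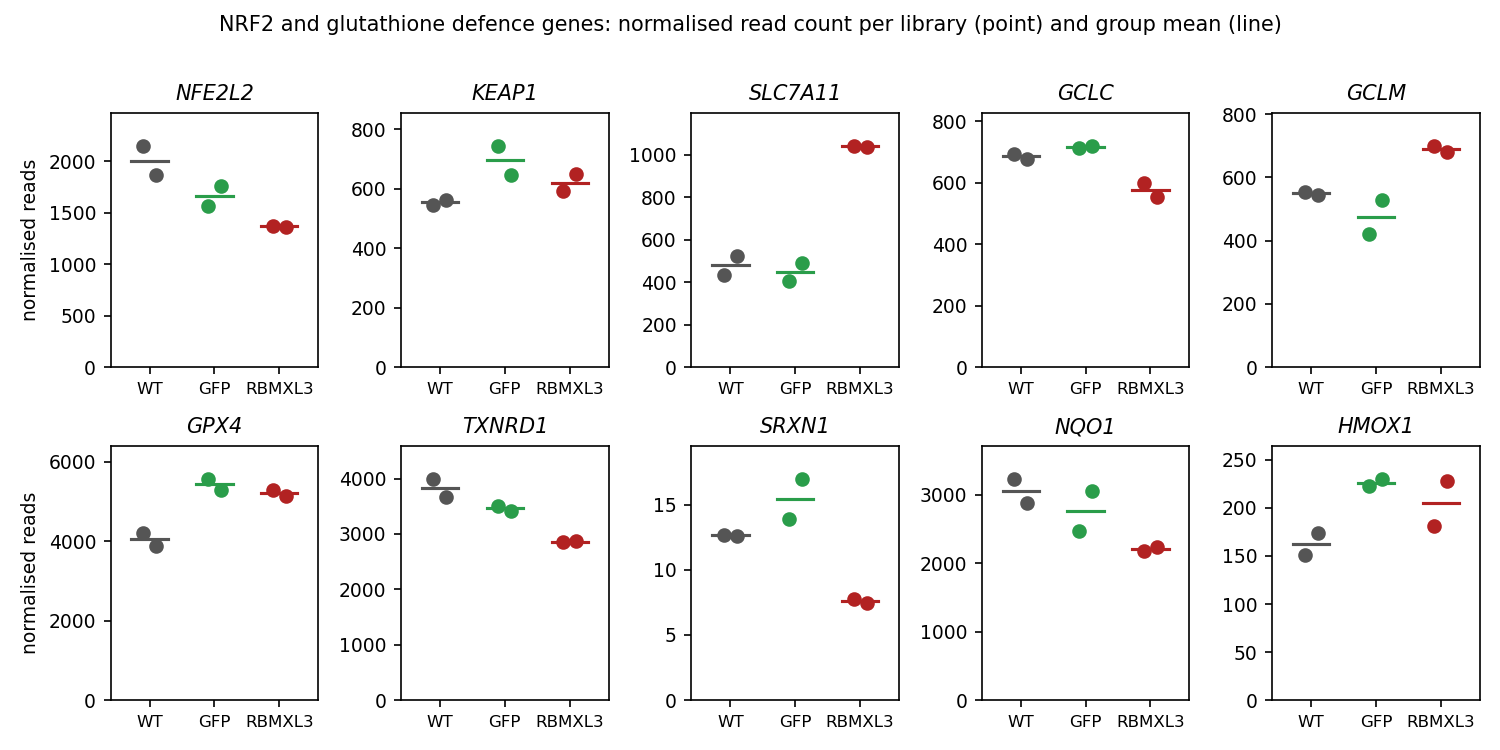
Normalised read count (y axis, from 0) of the 10 genes in each library of WT, GFP and RBMXL3 cells (x axis); points are libraries and lines are group means of 2. Both SLC7A11 points of RBMXL3, 1042 and 1038, lie above all 4 control points, whereas those of NFE2L2, TXNRD1, NQO1 and GCLC lie below them.

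The transcription factor and its repressor came first. NFE2L2 had 2145 and 1866 normalised reads in WT, 1567 and 1759.8 in GFP, compared with 1375 and 1359 in RBMXL3. Both RBMXL3 libraries were below all 4 controls, and the WT libraries were the highest. The means ± SD (n = 2) were 2006 ± 198 for WT, 1663 ± 136 for GFP and 1367 ± 11.2 for RBMXL3. Against WT the gene fell by 0.54 on the log2 scale (SE 0.11, limma adjusted p = 0.00287). Against GFP the log2 difference was -0.28 (SE 0.11, limma adjusted p = 0.0822), and for GFP against WT it was -0.27 (limma adjusted p = 0.168). Without WT replicate 1 the difference from WT was not called (limma adjusted p = 0.0534), and without GFP replicate 1 the difference from GFP was called (limma adjusted p = 0.0202). In TPM, NFE2L2 had 53.0 and 46.4 in WT, 40.4 and 40.2 in GFP, compared with 37.7 and 37.2 in RBMXL3, the same order. NFE2L2-201 held between 96.96% and 99.5% of it. NFE2L2 lies on chromosome 2 (GRCh38, 177227595 to 177392697, minus strand), where a sense-overlapping gene covers 17.6% of its exon length and had between 47 and 84 reads.

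KEAP1, the adaptor that targets NRF2 for degradation, had 546 and 564 normalised reads in WT, 744 and 648 in GFP, compared with 594 and 649 in RBMXL3. The RBMXL3 values lay between the WT values and the higher GFP value. No comparison of KEAP1 was called, with log2 differences of -0.16 (limma adjusted p = 0.361) against GFP, 0.16 (limma adjusted p = 0.325) against WT and 0.31 (limma adjusted p = 0.138) for GFP against WT. Without GFP replicate 2, KEAP1 was called higher in GFP than in WT (limma adjusted p = 0.0248). Its TPM was spread over KEAP1-201, KEAP1-202, KEAP1-210, KEAP1-205 and KEAP1-206, and for each of them RBMXL3 overlapped the controls.

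Cystine import showed the largest difference among the members. SLC7A11 encodes the light chain of the cystine and glutamate antiporter, which brings in the cystine from which cysteine for glutathione is made. It had 436 and 524 normalised reads in WT, 404 and 492 in GFP, compared with 1042 and 1038 in RBMXL3. The WT and GFP ranges overlapped and both RBMXL3 libraries stood well above them. The group means ± SD (n = 2) were 480.2 ± 62.4 for WT, 448 ± 62.1 for GFP and 1040.0 ± 2.30 for RBMXL3, from 437 to 625 reads in a control library and 809 and 971 reads in RBMXL3. RBMXL3 was 2.32-fold higher than GFP, or 1.18 on the log2 scale (SE 0.13, limma adjusted p = 0.000245). It was 2.17-fold higher than WT, or 1.08 on the log2 scale (SE 0.13, limma adjusted p = 0.000149). GFP differed from WT by -0.10 on the log2 scale (limma adjusted p = 0.693).

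Ranked by log2 change, SLC7A11 was number 40 of 14292 genes against GFP and number 139 against WT. A called rise of at least 1 on the log2 scale was found for 0.637% of all genes against GFP, 1.27% against WT and 0.364% against both. SLC7A11 was called against each control under every alternative tried, including without each library in turn. The gene lies on chromosome 4 (GRCh38, 138164097 to 138242349, minus strand). Its antisense gene SLC7A11-AS1 covers 8.97% of its exon length and had between 3 and 14 reads in a library. On the TPM scale SLC7A11 had 4.53 and 5.20 in WT, 4.26 and 4.37 in GFP, compared with 7.91 and 8.04 in RBMXL3. RBMXL3 was separated from the controls as in the read counts, with a smaller difference. It was 1.85-fold against GFP (limma adjusted p = 0.0289) and 1.64-fold against WT (limma adjusted p = 0.0339). In log2 these differences were 0.76 and 0.62, or 0.63 and 0.59 relative to the median TPM difference of all genes. Nearly all of this TPM, at least 92.3% in every library, belonged to the transcript SLC7A11-201 of 9645 bases, and the rest to SLC7A11-202.

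SLC7A11 is inserted in the membrane with a heavy chain, SLC3A2, which also serves other amino acid transporters. SLC3A2 had 3855 and 4213 normalised reads in WT, 5099 and 5196 in GFP, compared with 6468 and 6312 in RBMXL3. The groups did not overlap, and GFP lay between WT and RBMXL3. SLC3A2 rose by 0.31 on the log2 scale against GFP (limma adjusted p = 0.0353) and by 0.66 against WT (limma adjusted p = 0.000462). On the TPM scale its differences were not called (limma adjusted p = 0.123 and 0.0572).

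The genes whose pattern over the 6 libraries was most like that of SLC7A11, by Euclidean distance of centred log2 values among 10743 genes, were ALG10B at 0.13, PPP1CB at 0.17 and RNF11 at 0.22. ALG10B encodes an enzyme of glycan precursor assembly and PPP1CB a catalytic subunit of protein phosphatase 1. ALG10B had 160.0 and 209.7 normalised reads in WT, 164 and 191 in GFP, compared with 412 and 392 in RBMXL3. These genes were picked by this likeness, so their differences are a description.

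Glutamate-cysteine ligase, the rate-limiting enzyme of glutathione synthesis, has a catalytic subunit, GCLC, and a modifier subunit, GCLM. In read counts the RBMXL3 libraries lay above the controls for GCLM and below them for GCLC. GCLM had 555 and 544 normalised reads in WT, 421 and 528 in GFP, compared with 699 and 681 in RBMXL3. Both RBMXL3 libraries were above all 4 controls. The means ± SD (n = 2) were 549.5 ± 8.33 for WT, 474 ± 75.1 for GFP and 690.1 ± 12.7 for RBMXL3. GCLM was 1.45-fold higher than in GFP, or 0.53 on the log2 scale (SE 0.12, limma adjusted p = 0.0115). Against WT the log2 difference was 0.32 (SE 0.12, limma adjusted p = 0.0709). The call against GFP was lost without RBMXL3 replicate 1 (limma adjusted p = 0.106) and without RBMXL3 replicate 2 (limma adjusted p = 0.0929), and with no filter on low values (limma adjusted p = 0.065). Without GFP replicate 1 or GFP replicate 2, GCLM was also called against WT (limma adjusted p = 0.0119 and 0.0126).

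GCLC had 695 and 679 normalised reads in WT, 714 and 719 in GFP, compared with 600.0 and 554 in RBMXL3. Both RBMXL3 libraries were below all 4 controls, although the difference passed the threshold in neither comparison. The log2 difference was -0.30 against GFP (SE 0.11, limma adjusted p = 0.0615) and -0.24 against WT (SE 0.11, limma adjusted p = 0.104). With quantile normalisation the difference from GFP was called (limma adjusted p = 0.0411), and without GFP replicate 1 or GFP replicate 2 the difference from WT was called (limma adjusted p = 0.0407 and 0.0408). GCLM lies on chromosome 1 (GRCh38, 93885205 to 93909456, minus strand) and GCLC on chromosome 6 (53497341 to 53616970, minus strand).

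The TPM scale gave another direction for GCLM. It had 12.9 and 15.1 TPM in WT, 14.2 and 12.4 in GFP, compared with 11.8 and 11.9 in RBMXL3, so both RBMXL3 libraries were below all 4 controls. The log2 difference in TPM was -0.15 against GFP (limma adjusted p = 0.48) and -0.22 against WT (limma adjusted p = 0.286). On this scale the median of all genes was 0.13 against GFP, 0.03 against WT and -0.09 for GFP against WT. Relative to that median, GCLM stood at -0.27 against GFP. GCLC had 14.8 and 18.6 TPM in WT, 16.5 and 15.1 in GFP, compared with 11.4 and 12.3 in RBMXL3, lower in RBMXL3 on both scales and called on neither.

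**Figure D2:**
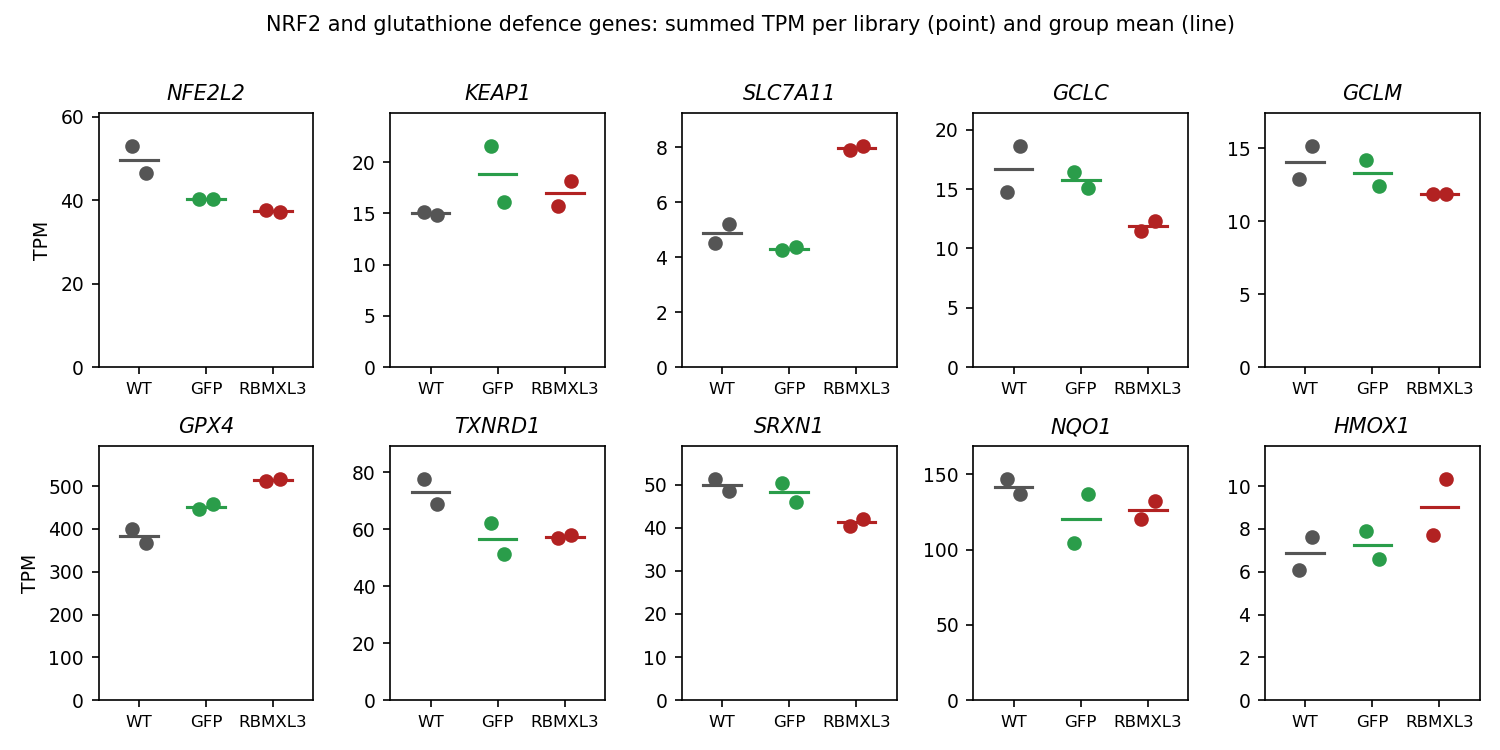
Summed TPM (y axis, from 0) of the 10 genes in each library of WT, GFP and RBMXL3 cells (x axis); points are libraries and lines are group means of 2. SLC7A11 and GPX4 lie above all 4 controls in RBMXL3, and GCLM, which was above them in read counts, lies below them.

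The listed transcript shares of both ligase subunits differed between RBMXL3 and the controls, although a test of shares, given below, called neither subunit against either control. GCLM-201, of 4857 bases, held 72.8% and 55.5% of the GCLM TPM in WT, 35.5% and 53.6% in GFP, compared with 100.0% and 92.7% in RBMXL3. GCLM-204, of 3008 bases, had 3.51 and 3.87 TPM in WT, 4.71 and 4.68 in GFP, compared with 0 and 0.868 in RBMXL3. The shorter transcript was thus listed at or near 0 in RBMXL3, where the longer was at its highest, 11.83 and 11.02 TPM against 5.02 to 9.39 in the controls. Single transcripts were also tested with limma on TPM, adjusted over all transcripts tested. GCLM-201 (limma adjusted p = 0.105 against GFP and 0.4 against WT) and GCLM-204 (0.0804 and 0.0941) were called against neither control. GCLM-203, a processed transcript of 625 bases, had between 0 and 4.44 TPM in the controls and was listed at 0 in both RBMXL3 libraries.

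For GCLC too, the longest of these transcripts held most of the TPM in RBMXL3. GCLC-215, of 3785 bases, held 45.1% and 12.7% of the GCLC TPM in WT, 17.8% and 27.6% in GFP, compared with 98.0% and 72.8% in RBMXL3. GCLC-213, of 3287 bases, had 4.67 and 5.22 TPM in WT, 6.98 and 3.63 in GFP, and was listed at 0 in both RBMXL3 libraries. Tested singly, GCLC-215 was called against neither control (limma adjusted p = 0.214 against GFP and 0.265 against WT). GCLC-213 was called lower against both (limma adjusted p = 0.0446 and 0.0418). GCLC-214, of 2289 bases, was listed at 0 in RBMXL3 and in WT replicate 1, and had between 2.92 and 4.77 TPM in the other controls. GCLC-208, of 1800 bases, was listed at 0 in RBMXL3 replicate 1 and had 3.16 TPM in RBMXL3 replicate 2, within its range of 2.23 to 3.32 in the controls. GCLC-211, of 553 bases, was above 0 only in WT replicate 2, at 2.97 TPM.

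Usage was tested with limma's diffSplice, which asks whether the transcripts of a gene change by different amounts, in the 6 members with at least 2 expressed transcripts. Against GFP, GCLC (adjusted p = 0.0299) and GCLM (adjusted p = 0.0326) were called by limma, 2 of 6 members, where 12.0% of the 8882 genes tested were called. Against WT, 0 of 6 were called by diffSplice, where the share of all genes was also 12.0%, and 1 had an unadjusted p under 0.05. A test of transcript shares called 0 of 6 in that comparison, with 2 at an unadjusted p under 0.05. For GFP against WT, 0 of 6 were called by either test, with 0 at an unadjusted p under 0.05, where diffSplice called 1.72% of all genes. Against GFP, the test of shares called neither subunit (limma adjusted p = 0.0741 for GCLC and 0.126 for GCLM), and diffSplice called 0 members without RBMXL3 replicate 1 or RBMXL3 replicate 2 and 1 member without GFP replicate 1.

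**Figure D3:**
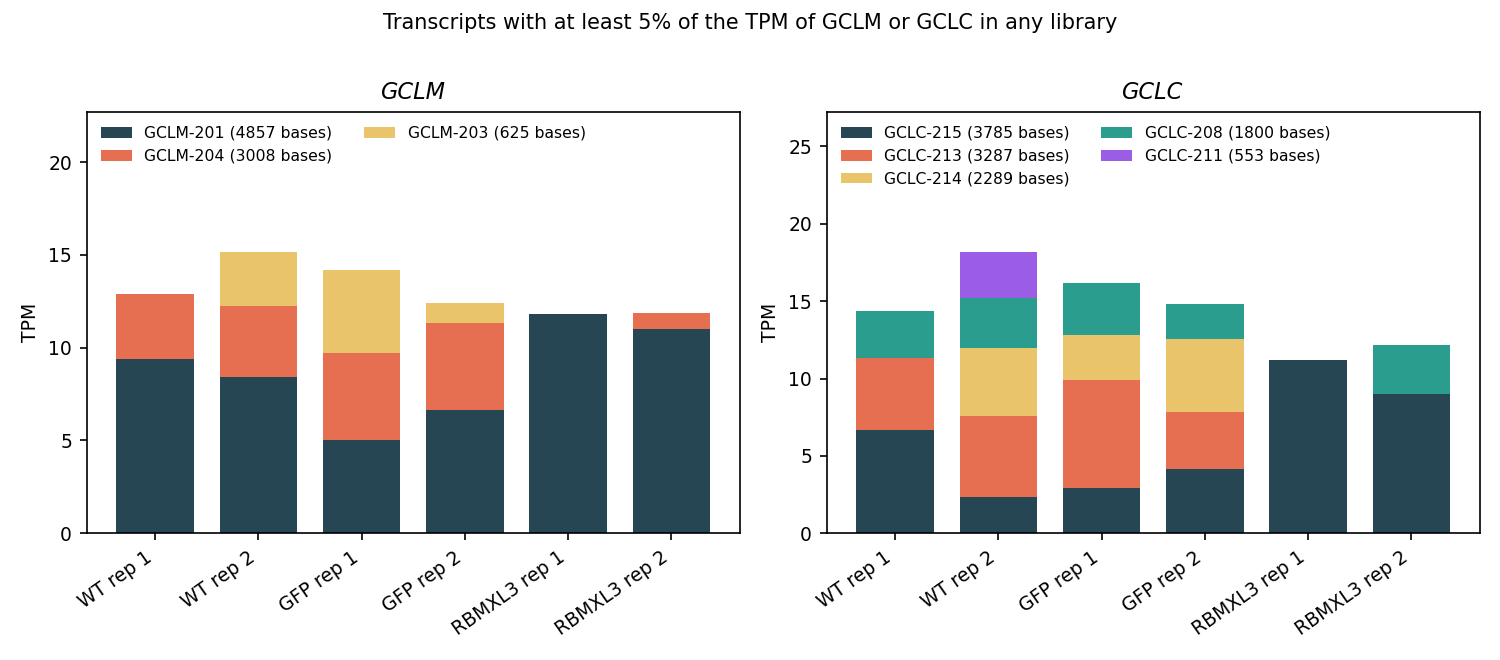
TPM (y axis, stacked bars from 0) of the GCLM and GCLC transcripts that held at least 5% of the TPM of their gene in any library, in the 6 libraries (x axis). The longest transcript, GCLM-201 or GCLC-215, makes up most of each RBMXL3 bar, while GCLM-204 and GCLC-213 are at or near 0 there.

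Read counts grow with transcript length and TPM does not, so the TPM-weighted mean transcript length was compared. For GCLM it was 3968 ± 546 bases for WT, 3355 ± 618 for GFP and 4789.5 ± 95.4 for RBMXL3 (mean ± SD, n = 2), and for GCLC 2814 ± 542, 2878 ± 1.01 and 3513 ± 351 bases. Both RBMXL3 libraries were above all 4 controls for GCLM, GCLC and NFE2L2, and below them for NQO1 and GPX4. The shifts were small for NFE2L2 (2833 and 2847 bases against 2805 to 2827) and GPX4 (801 and 803 against 805 to 813). Among 8849 genes with at least 2 transcripts that reached 1 TPM in at least 2 libraries, 21.5% were above and 9.22% below. These shares used such transcripts only, whereas the member values used all transcripts. NFE2L2 was not among the 8849 genes. The median over all genes was between 2189.6 and 2266 bases in the controls and 2334 and 2322 in RBMXL3. How far transcript length accounts for the difference between the scales was not tested.

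Promoter sequence was examined because GCLM and other members are known targets of NRF2. The core of the antioxidant response element, TGACNNNGC on either strand, was searched in RefSeq windows from 250 bases before to 50 bases after each start (GRCh38.p14). Of the members, 8 had a window, and 3 of these, GCLM, TXNRD1 and KEAP1, held the motif, a share of 37.5%, beside 16.1% of 27305 genes. By window it was 4 of 13, or 30.8%, beside 13.3% of 35116 windows. Sequence outside these windows was not searched, so a gene without a match may hold the element elsewhere. SLC7A11 and HMOX1 had no entry. The 5 matches that lie wholly upstream of a start are shown 5′ to 3′ on the strand of the gene, with the motif in capitals and 10 flanking bases on each side:
GCLM, chr1:93909446-93909474, minus strand: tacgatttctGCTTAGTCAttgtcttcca
TXNRD1 first start, chr12:104215670-104215698, plus strand: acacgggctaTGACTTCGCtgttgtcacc
TXNRD1 second start, chr12:104286920-104286948, plus strand: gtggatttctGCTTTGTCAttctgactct
KEAP1, chr19:10502784-10502812, minus strand: gcccggctctGCTTAGTCAtggtgacctg
KEAP1, chr19:10502807-10502835, minus strand: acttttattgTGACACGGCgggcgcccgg
GCLM and the first KEAP1 stretch hold the same 9 letters, 34 to 26 and 31 to 23 bases upstream of the start of their window. Both KEAP1 matches lie in the window at 10502722 to 10503021, and its other window, at 10503307 to 10503606, held 0. The KEAP1 stretches overlap in their flanks and, like the second TXNRD1 stretch, lie inside the annotated span of the gene. The GCLM stretch runs across the annotated 5′ end of its gene, at 93909456. A further TXNRD1 match reaches the start itself and is not shown. GCLM was called higher against GFP in read counts, TXNRD1 was called lower against WT, and KEAP1 was not called. The matches are a description of letters and not of binding.

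GPX4, the selenoprotein that uses glutathione to reduce lipid peroxides in membranes, was higher in both transduced groups than in WT. It had 4206 and 3885 normalised reads in WT, 5565 and 5296 in GFP, compared with 5293 and 5138 in RBMXL3. The GFP and RBMXL3 values were all above WT, and every RBMXL3 value was below both GFP values. GPX4 rose against WT by 0.37 on the log2 scale in RBMXL3 (SE 0.09, limma adjusted p = 0.0127) and by 0.42 in GFP (SE 0.09, limma adjusted p = 0.0364). RBMXL3 against GFP differed by -0.06 (SE 0.09, limma adjusted p = 0.705). The call in RBMXL3 against WT was lost without WT replicate 2 (limma adjusted p = 0.0878) and without either RBMXL3 library (limma adjusted p = 0.161 and 0.125), and the call in GFP was lost when any WT or RBMXL3 library was left out (limma adjusted p from 0.11 to 0.176) and with no filter on low values (limma adjusted p = 0.183).

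In TPM, GPX4 had 401 and 368 in WT, 446 and 458 in GFP, compared with 513 and 516 in RBMXL3. Here the RBMXL3 libraries were above both GFP libraries, unlike in read counts. RBMXL3 rose against WT by 0.42 on the log2 scale in TPM (limma adjusted p = 0.0318), and the difference from GFP was 0.19 (limma adjusted p = 0.219), or 0.06 relative to the median of all genes. For GFP against WT the TPM difference was 0.24 and was not called (limma adjusted p = 0.288). GPX4-210, of 793 bases, was the main transcript, with 309 and 312 TPM in WT, 351 and 373 in GFP, compared with 439.6 and 449 in RBMXL3. GPX4-201, of 919 bases, had 33.8 to 68.6 TPM in the controls and 40.0 and 42.5 in RBMXL3. GPX4 lies on chromosome 19 (GRCh38, 1103926 to 1106791, plus strand).

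The thioredoxin arm of the defence is represented by TXNRD1, the cytosolic thioredoxin reductase, and SRXN1, sulfiredoxin, which restores over-oxidised peroxiredoxins. TXNRD1 had 3989.5 and 3668 normalised reads in WT, 3511 and 3408 in GFP, compared with 2861 and 2867 in RBMXL3. The groups did not overlap, and RBMXL3 was the lowest. TXNRD1 fell by 0.41 on the log2 scale against WT (SE 0.09, limma adjusted p = 0.00635), and the difference from GFP was -0.27 (SE 0.09, limma adjusted p = 0.0576). The call against WT was lost without WT replicate 1 and without either RBMXL3 library (limma adjusted p from 0.0736 to 0.0966). The difference from GFP was called without GFP replicate 1 (limma adjusted p = 0.0463) and without GFP replicate 2 (limma adjusted p = 0.0202).

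In TPM, TXNRD1 had 77.6 and 68.8 in WT, 62.1 and 51.3 in GFP, compared with 56.9 and 57.9 in RBMXL3. The RBMXL3 libraries lay between the GFP libraries, and the log2 difference from GFP was 0.02 (limma adjusted p = 0.917), or -0.10 relative to the median of all genes. Against WT the TPM difference was -0.34 and was not called (limma adjusted p = 0.11). TXNRD1-212, of 3808 bases, was lower in RBMXL3, at 3.41 and 1.97 TPM, than in the controls, at 6.83 to 15.8. TXNRD1-206, of 1933 bases, was also below them, at 4.67 and 5.53 TPM against 5.93 to 21.1. TXNRD1-205, of 3930 bases, was higher, at 26.8 and 30.2 TPM against 10.8 to 24.1. Tested singly, TXNRD1-212, TXNRD1-206 and TXNRD1-205 were called against neither control (limma adjusted p from 0.114 to 0.709). TXNRD1-214 (8.12 to 16.5 TPM in the controls, 12.3 and 9.20 in RBMXL3) and TXNRD1-213 (0.966 to 7.00, compared with 7.40 and 6.83) overlapped. The change of usage was not called against GFP (limma adjusted p = 0.0874). TXNRD1 lies on chromosome 12 (GRCh38, 104215779 to 104350305, plus strand).

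SRXN1 had 15, 15, 15 and 16 reads in the 4 control libraries and 6 and 7 in RBMXL3, under the minimum for testing. Its TPM was far higher, 51.3 and 48.4 in WT, 50.4 and 46.1 in GFP, compared with 40.4 and 42.1 in RBMXL3. Another gene on the same strand covers 85.0% of the exon length of SRXN1 and had 0 or 1 reads, so its gene count is uncertain. All of the TPM belonged to SRXN1-201. Both RBMXL3 libraries were the lowest on the TPM scale, with log2 differences of -0.22 against GFP (limma adjusted p = 0.189) and -0.27 against WT (limma adjusted p = 0.115). SRXN1 lies on chromosome 20 (GRCh38, 646615 to 653370, minus strand).

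NQO1, the quinone reductase that is widely used as a readout of NRF2, had 3228 and 2880.1 normalised reads in WT, 2472 and 3051 in GFP, compared with 2178 and 2232 in RBMXL3. Both RBMXL3 libraries were below all 4 controls, and the GFP libraries were spread widely. NQO1 fell by 0.46 on the log2 scale against WT (SE 0.11, limma adjusted p = 0.00948), and the difference from GFP was -0.31 (SE 0.11, limma adjusted p = 0.0671). The call against WT was lost without WT replicate 1, without either RBMXL3 library (limma adjusted p from 0.0737 to 0.113 over these) and with no filter on low values (limma adjusted p = 0.0631). The difference from GFP was called without GFP replicate 1 (limma adjusted p = 0.00409).

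In TPM, NQO1 had 147 and 137 in WT, 104 and 137 in GFP, compared with 121 and 132 in RBMXL3. The RBMXL3 libraries lay within the range of GFP, and the log2 difference was 0.08 against GFP (limma adjusted p = 0.74), or -0.05 relative to the median, and -0.17 against WT (limma adjusted p = 0.456). NQO1-201, of 2912 bases, had 22.2 and 21.5 TPM in RBMXL3 and 27.5 to 38.9 in the controls, whereas NQO1-202, of 1105 bases, had 35.8 and 41.4 against 23.9 to 33.8. Tested singly, NQO1-201 and NQO1-202 were called against neither control (limma adjusted p from 0.0816 to 0.313). The most abundant, NQO1-206 of 892 bases, held between 49.1% and 54.9% of the TPM in every library, and its RBMXL3 values, 59.2 and 68.5 TPM, lay within the range of the controls, 51.6 to 75.2. NQO1 lies on chromosome 16 (GRCh38, 69706996 to 69726951, minus strand).

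HMOX1, the inducible heme oxygenase, had 151 and 174 normalised reads in WT, 223 and 229.9 in GFP, compared with 182 and 228 in RBMXL3. The RBMXL3 libraries overlapped the GFP libraries and were above WT. No comparison was called, with log2 differences of -0.14 against GFP (limma adjusted p = 0.542), 0.29 against WT (limma adjusted p = 0.15) and 0.43 for GFP against WT (limma adjusted p = 0.114). In TPM, HMOX1 had 6.10 and 7.63 in WT, 7.89 and 6.59 in GFP, compared with 7.71 and 10.3 in RBMXL3, and its direction against GFP was the opposite, at 0.27 on the log2 scale (limma adjusted p = 0.364), or 0.15 relative to the median. HMOX1-201 held at least 80.0% of the TPM in every library, with HMOX1-202 and HMOX1-203 the others above 5% in any. HMOX1 lies on chromosome 22 (GRCh38, 35380361 to 35394214, plus strand), and KEAP1 on chromosome 19 (10486120 to 10503741, minus strand).

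**Figure D4:**
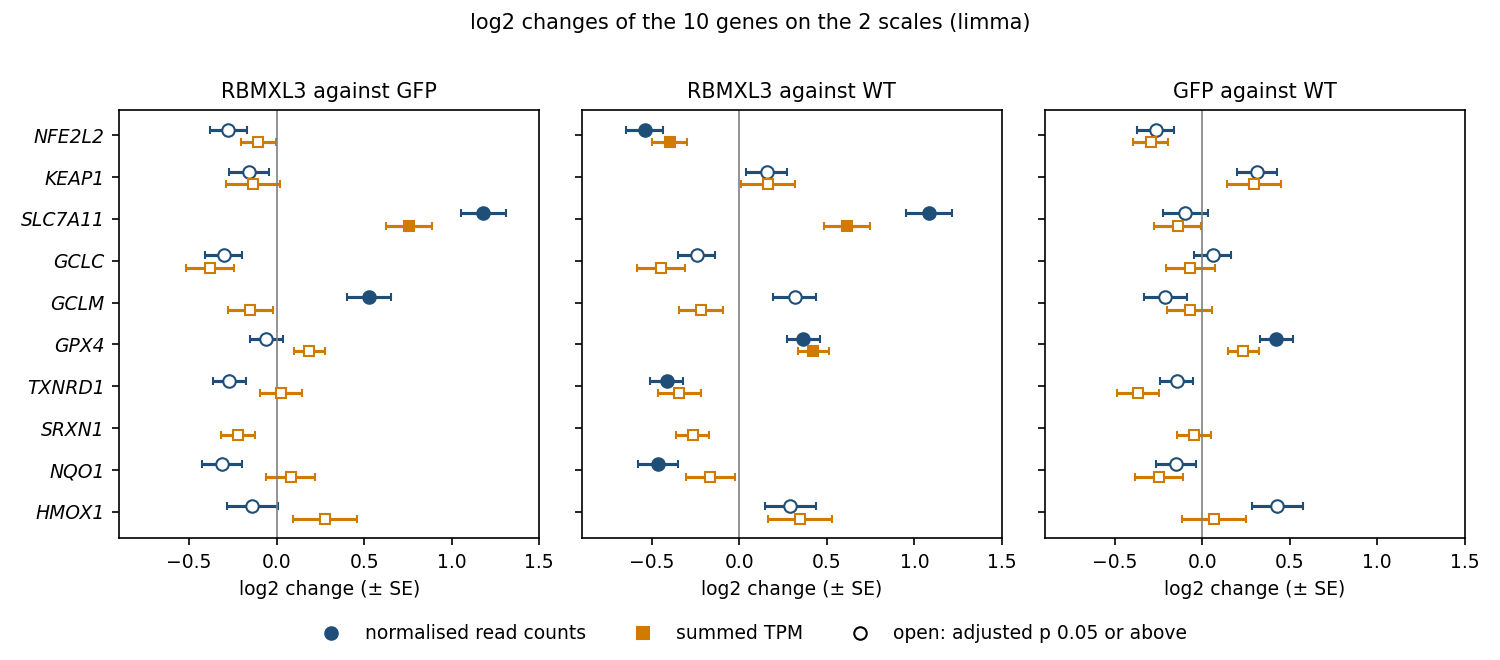
log2 change with its SE (x axis) of each member (y axis) in the 3 comparisons, from normalised read counts (circles) and summed TPM (squares); filled symbols have a limma adjusted p under 0.05. SLC7A11 is filled on both scales against GFP and against WT, and GCLM lies on opposite sides of 0 on the 2 scales.

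Counted over libraries, both RBMXL3 libraries were above all 4 controls in read counts for SLC7A11 and GCLM and below them for GCLC, NQO1, TXNRD1 and NFE2L2. That is 6 of 9 members, beside 46.1% of all genes tested, 22.5% above and 23.6% below. On the TPM scale SLC7A11 and GPX4 were above, as were 27.5% of all genes, and GCLC, GCLM, NFE2L2 and SRXN1 were below, as were 12.7%. Among the 9 tested members, SLC7A11, GCLC and NFE2L2 were outside the controls in the same direction on both scales. SRXN1, not tested in read counts, was below them on both, at 7.72 and 7.49 normalised reads against 12.6 to 16.95. By TPM, limma called 1 member against GFP (SLC7A11, 6.93% of all genes) and 3 against WT (SLC7A11 and GPX4 higher, NFE2L2 lower with adjusted p = 0.0499, 11.5% of all genes). For GFP against WT it called 0 members and 0.0% of all genes, with 3 members at an unadjusted p under 0.05.

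Beyond the members, 6 lists of related genes held 102 names, of which 94 were tested. Against GFP, 10 were called higher and 15 lower, beside 10.5% and 10.4% of all genes tested. Against WT, 22 were higher and 13 lower, beside 14.6% and 15.3%, and against both controls 10 in each direction, beside 6.88% and 6.86%. Among the 16 regulators and partners of NRF2, 0 were called higher and 2 lower against both controls, a share near that of all genes, 13.7% in either direction. All calls against WT were 1 higher and 2 lower, and the 2 lower were the same genes. The genes lower against both controls were CUL3 and BTRC. CUL3, the scaffold of the ligase that acts with KEAP1, had log2 changes of -0.33 against GFP and -0.58 against WT. BTRC, an adaptor of another ligase that acts on NRF2, had -0.42 and -0.46. Their limma adjusted p-values were 0.0394 and 0.00159 for CUL3 and 0.0157 and 0.00678 for BTRC. On the TPM scale BTRC was not called (limma adjusted p = 0.657 and 0.951).

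Of 32 tested genes of glutathione synthesis, recycling and use, 6 rose and 2 fell against both controls, beside 6.88% and 6.86% of all genes. OPLAH, which returns oxoproline to glutamate, had 97.4 and 92.3 normalised reads in WT, 170.0 and 119 in GFP, compared with 272 and 315 in RBMXL3. CHAC1, which breaks glutathione down, had 229 and 196 in WT, 379.8 and 348 in GFP, compared with 507 and 569 in RBMXL3. In both genes RBMXL3 was above all controls and GFP above WT, with log2 changes against GFP and WT of 0.93 and 1.42 for OPLAH and 0.54 and 1.25 for CHAC1. GSTM1, a glutathione transferase, rose by 0.48 and 1.11, but it shares sequence with its paralogs and its counts are uncertain. GPX3, the secreted glutathione peroxidase, fell by 0.62 against GFP and 0.68 against WT on the log2 scale. So the genes that rose in read counts included a glutathione-degrading enzyme as well as the importer, and a transferase whose counts are uncertain.

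Of 14 genes of the thioredoxin and peroxiredoxin list, 3 rose and 1 fell against both controls, beside 6.88% and 6.86% of all genes. TXNIP, an inhibitor of thioredoxin, had 301 and 308 normalised reads in WT, 397 and 477 in GFP, compared with 794 and 795 in RBMXL3. The groups did not overlap, with log2 changes of 0.83 against GFP and 1.32 against WT. The sestrin genes SESN3 (0.59 and 0.81) and SESN2 (0.33 and 0.68) rose, and PRDX4, the peroxiredoxin of the endoplasmic reticulum, fell by 0.56 and 0.51. Of 20 tested further targets of NRF2, 0 rose and 4 fell against both controls, beside 6.88% and 6.86% of all genes. All calls against WT, with those 4 included, were 3 higher and 5 lower, beside 14.6% and 15.3% of all genes. Those lower against both were FTH1, the ferritin heavy chain (-0.85 and -0.74), whose many pseudogenes make its counts uncertain, and the NADPH-linked enzymes ME1 (-0.60 and -0.63), PGD (-0.52 and -0.33) and AKR1B1 (-0.47 and -0.39). Among 4 superoxide and peroxide enzymes, SOD1 fell by 0.84 against GFP and 0.47 against WT. Among 8 ferroptosis genes, GCH1, the first enzyme of tetrahydrobiopterin synthesis, rose by 0.48 and 0.37. On the TPM scale, PRDX4, SESN3, PGD and AKR1B1 were called against neither control, while TXNIP, SESN2, ME1 and FTH1 were called against both.

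**Figure D5:**
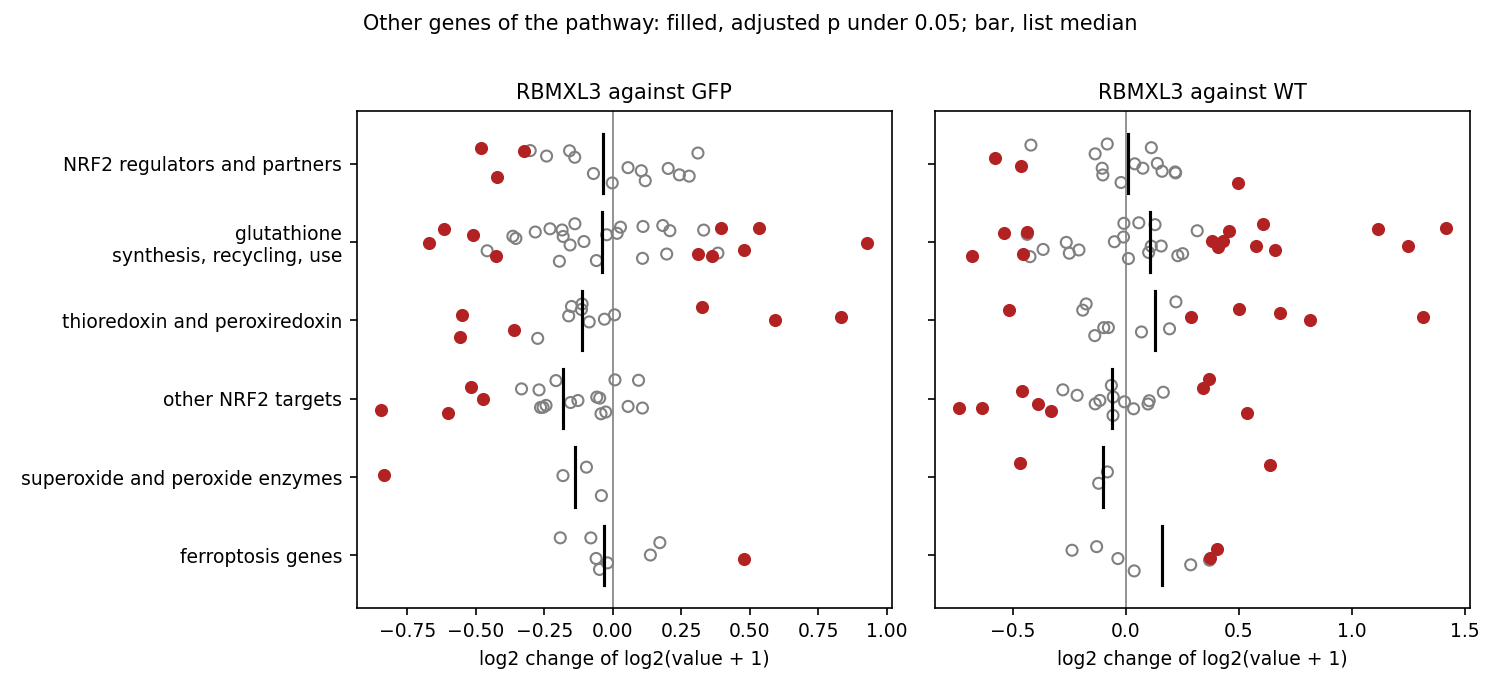
log2 change (x axis) of each tested gene of the 6 other lists (y axis, jittered within a list) in RBMXL3 against GFP and against WT; filled points have a limma adjusted p under 0.05 and bars are list medians. The further NRF2 targets include 0 called higher and 4 lower against GFP and 3 higher and 5 lower against WT, and the glutathione list 6 higher and 4 lower against GFP and 10 higher and 4 lower against WT. Of all genes, 10.5% were higher and 10.4% lower against GFP and 14.6% and 15.3% against WT.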

How the data were processed

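The authors trimmed reads with Trim Galore 0.6.10 and used STAR 2.7.11a, DESeq2 and Salmon 1.10.2 with GRCh38, per the submitters' processing notes. The read counter, annotation and strand setting are not given in the sources used here. Although its name says CPM, the deposited gene table holds a normalised signal: 100% of 145320 nonzero values were whole reads (within 0.001 reads) divided by a size factor per library. The deposited transcript table holds TPM for 251955 transcripts, which keeps no depth. The number of columns belonging to no sample was 0.

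For this re-analysis the gene values were divided by a common factor, 23.9, since the planned test assumed CPM. Genes reaching a value of 1 in 2 or more libraries were tested as log2(value + 1) with limma 3.58.1 (R 4.3.3), with a trend, in a fit of all 6 libraries, two-sided, with Benjamini-Hochberg adjustment. Fold changes on this scale understate changes of low genes. Printed fold values are ratios of group means. TPM were summed by gene or taken by single transcript and fitted alike, and usage was tested with diffSplice on log2(TPM + 1). Of the transcripts, 80.0% were in GENCODE 29 and carried at least 94.7% of the TPM. Alternatives included edgeR 4.0.16 and DESeq2 1.42.0 on the recovered reads. Intervals and floors cover counting error only. The fits were tested on simulated data.

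The members, lists and rules were chosen with earlier results of these data known. All 10 members were named, with their transcripts that held at least 5% of the TPM of the gene in any library. From each other list, at most 4 genes called against both controls were named, those with the largest smaller change, plus SLC3A2 as the partner of SLC7A11. The 3 genes nearest to SLC7A11 were named by distance among genes with a mean of at least 5.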

Additional observations from a re-analysis of the deposited data

How the results depend on the processing

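Of 405 alternative values for the 27 member differences, 357 kept their direction and side of the threshold, 23 lost and 13 gained a call, and 12 changed direction, 7 of these under summed TPM. Those 7 were GCLM (-0.15), NQO1 (0.079), HMOX1 (0.27), TXNRD1 (0.024) and GPX4 (0.19) against GFP, GCLM against WT (-0.22) and GCLC in GFP against WT (-0.067), all in log2. GPX4 against GFP was 0.013 under quantile normalisation, and without 1 library in turn HMOX1 against GFP ranged from -0.28 (without RBMXL3 replicate 2) to 0.0086 (without RBMXL3 replicate 1). For GFP against WT, NQO1 ranged from -0.30 (without GFP replicate 2) to 0.00093 (without GFP replicate 1), and SLC7A11 from -0.23 (without GFP replicate 2) to 0.038 (without GFP replicate 1), with 0.03 without WT replicate 2. The cause was not tested. With no filter, limma called 1 member against GFP and 0 in GFP against WT (4 at an unadjusted p under 0.05), and 950, 2327 and 0 genes against GFP, against WT and in GFP against WT (3951 unadjusted in the last), with 673 against both controls. Summed TPM called 1, 3 and 0 members and 988, 1638 and 0 genes (2214 unadjusted in the last), with 655 against both controls. Quantile normalisation called 327 genes in GFP against WT. Usage against GFP was called in 0 members by the test of shares (3 unadjusted) and in 1 with a mean TPM of at least 5. On the recovered reads edgeR called 2, 5 and 1 members and 2848, 4157 and 474 genes, and DESeq2 called 2, 5 and 1 members and 2497, 3587 and 695 genes. Without 1 library in turn, members called ranged from 1 to 5 against GFP, 2 to 7 against WT, 0 to 5 in GFP against WT and 1 to 5 against both. The lowest count against GFP came without either RBMXL3 library, against WT also without WT replicate 1, and in GFP against WT without any RBMXL3 or WT library. The highest came without GFP replicate 1 (against GFP and both), either GFP library (against WT) and GFP replicate 2 (GFP against WT). Genes called ranged from 658 to 4313, 1428 to 6163, 0 to 2780 and 435 to 2715. Usage calls ranged from 0 to 2, 0 to 1 and 0 to 0. A group left with 1 library was assumed to vary like the others. Without GFP replicate 1, NFE2L2, NQO1 and TXNRD1 were also called lower against GFP.

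The replicate numbers come from the titles only, and same-numbered libraries did not deviate together (correlations of -0.16, 0.03 and -0.09 across genes), so no pairing was assumed. With the replicate number as a block, limma called 2 members against GFP, 5 against WT and 0 in GFP against WT (4 unadjusted, GPX4 at adjusted p = 0.0669), and 2386, 3697 and 191 genes. SRXN1, with 6 to 16 reads in the gene count and 40.4 to 51.3 TPM, was under the minimum for a test in read counts. NFE2L2, at 37.2 to 53.0 TPM, had 1068 to 2534 reads in the same libraries. The cause of the low SRXN1 count was not tested, and TPM keeps no depth.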
